A study of Sus scrofa with 4 samples.

Results

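The cholesterol synthesis enzymes described here are 6 genes of porcine granulosa cells (GCs), namely ACAT2, HMGCS1, SQLE, CYP51, TM7SF2 and MSMO1, taken from the 9962 genes that the array's annotation names and that had a value on every array. They were chosen from results of these same arrays, so their own differences between NEFA and control are given as a description and not as a test. Each gene is read from its brightest probe. TM7SF2 has a second probe and the other 5 genes have 1 each, so the 6 genes take up 7 spots. Symbols were updated for a pair of them, with the probe of MSMO1 listed under SC4MOL and that of CYP51 under CYP51A1.

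Cells make cholesterol from acetyl-CoA by way of mevalonate, squalene and lanosterol. The enzymes of this route are mostly transcribed together under SREBP2, a membrane-bound transcription factor that is released when sterols in the endoplasmic reticulum run low. In GCs cholesterol is the raw material of steroid hormones, and the cells draw it from lipoproteins as well as from their own synthesis.

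The tested RNA came from GC monolayers kept with cumulus-oocyte complexes (COCs) through in vitro maturation (IVM) in medium with a mixture of palmitic, stearic and oleic acid, the non-esterified fatty acids (NEFAs). The control RNA came from monolayers handled the same way in medium that had the albumin and ethanol of the NEFA medium but no fatty acid. Both media held growth factor and follicular fluid throughout, with gonadotrophins and dibutyryl-cyclic AMP at first. The GCs came from follicles of slaughterhouse ovaries, had been cultured with serum for days before IVM, and each replicate pooled the wells of a single plate, so a replicate is a plate of mixed ovaries and not an animal. There were 4 replicates from IVMs of different days, and on each of arrays A, B, C and D (replicates 1 to 4) both RNAs of a replicate were hybridized in different dyes, 8 RNA samples in all. A level below is a normalized log2 intensity of 1 RNA, a ratio is the log2 level with NEFAs minus that of the control on the same array, and in such bulk RNA fewer cells of a type and less RNA per cell cannot be told apart.

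Some facts about the arrays bear on every sign. The titles of the arrays name the opposite dyes from their channel fields, on all 4 arrays. The channel fields were followed (NEFA in Cy3 on A and B, in Cy5 on C and D). The titles would turn every sign below, and which of them is right was not tested. Array A also ran against the others. Its log2 ratio of red over green had a Pearson correlation across probes of -0.74 with array B, -0.32 with C and -0.30 with D, while B, C and D had 0.32 to 0.47 with each other (probes are not independent replicates). The median local background of array A was 117 in green and 63.1 in red, against 60.9 to 75.0 in green and 116 to 173 in red on the other arrays. Over 59 kinds of control probe, which GC RNA does not set, it correlated at -0.80 with the mean of B, C and D, whereas each of these correlated at 0.96 to 0.98 with the other two. ANGPTL4 and PLIN2, genes that fatty acids are known to induce in many cells, had ratios of -2.72 and -1.76 on array A as headed. On arrays B, C and D ANGPTL4 had 3.04, 3.03 and 3.47 and PLIN2 had 1.51, 1.18 and 1.38. The labels mention no exchange of columns, and each value is given with the columns of array A as headed, with its columns exchanged, and where it matters without array A.

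Between 15.7% and 37.8% of probes were above background, depending on array and dye, with the limit at the mean plus 2 SD of 153 negative control spots, and no probe was saturated. The brightest probes of all 6 enzymes were above background in both RNAs of all 4 arrays. The second probe of TM7SF2 was above it in none. Of the granulosa marker genes 7 of 17 were measured and 2, AMH and FST, were above background. FSHR, CYP19A1, STAR, CYP11A1 and HSD3B1 are not named in the annotation and were not analysed here. Of the fibroblast or smooth muscle markers 3 of 5 were above background, among them ACTA2 (mean level 15.16) and DCN (14.90). Of the oocyte markers GDF9 was (1 of 6), of the cumulus markers HAS2 (1 of 2), and of the theca, leukocyte and endothelial markers none of 3, 4 and 3.

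On arrays B, C and D all 6 enzymes were lower with NEFAs than in the control. On array A as headed TM7SF2 alone was lower and the other 5 were higher. The median ratio of the 6 genes was -0.31 on B, -0.56 on C and -0.82 on D, and 0.55 on A as headed, beside medians of 0.01, -0.06, -0.04 and -0.01 over all genes. Ratios below 0 on B, C and D together were found for 14.1% of the 9962 genes, and for 23.9% of the 2682 genes above background, to which all 6 enzymes belong.

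**Figure D1:**
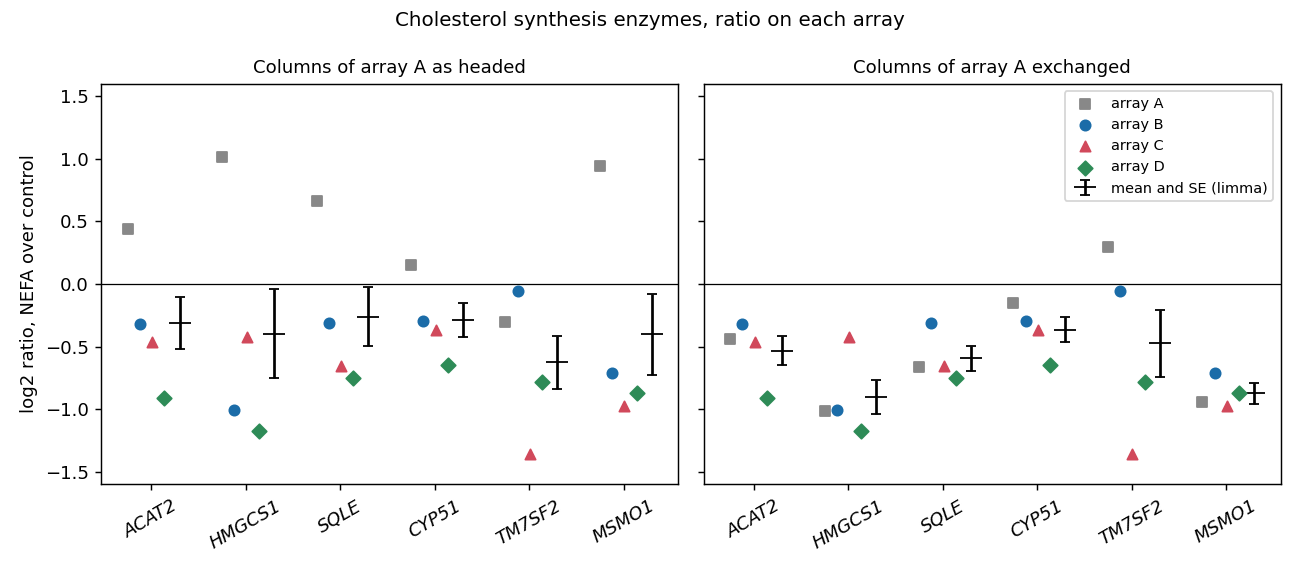
Log2 ratio of NEFA over control (vertical axis) of the 6 enzymes in pathway order on arrays A to D, with the limma mean and its standard error in black, for array A as headed (left) and exchanged (right). As headed, the ratios of array A lie between -0.30 and 1.01 while no ratio of B, C or D lies above 0. Exchanged, all but that of TM7SF2 join the others below 0.

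ACAT2, the cytosolic acetoacetyl-CoA thiolase that joins 2 acetyl-CoA at the start of the route, had levels of 11.57, 11.62, 11.19 and 11.72 in the NEFA RNA of arrays A to D, against 11.13, 11.93, 11.65 and 12.63 in the control RNA. The ranges of NEFA and control levels overlapped, and the lowest of the 8 levels was the control of array A. The mean ratio was -0.31 (standard error 0.21, n = 4 arrays) as headed and -0.53 (0.11) with array A exchanged, which is 1.45-fold lower with NEFAs. Without array A it was -0.57 (0.15, n = 3).

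HMGCS1, the cytosolic HMG-CoA synthase of the mevalonate route, had 10.63, 9.71, 9.83 and 9.97 in the NEFA RNA, against 9.61, 10.72, 10.25 and 11.15 in the control RNA. As headed the ranges overlapped through array A alone. With array A exchanged the NEFA levels ran between 9.61 and 9.97 and the control levels between 10.25 and 11.15, with no overlap, and HMGCS1 was the 1 enzyme of the 6 for which this held, beside 0.582% of all genes (as headed it held for 0 of the 6 and 0.391% of all genes). The mean ratio was -0.40 (standard error 0.35, n = 4) as headed, with an SD over arrays of 1.00, and 29 of the 9962 genes had a ratio at or below it. It was -0.86 without array A, -0.19 without B, -0.39 without C and -0.14 without D. Exchanged the mean was -0.90 (0.14), 1.87-fold lower with NEFAs, with 3 genes at or below it, and the SD was 0.33.

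SQLE, squalene epoxidase, carries out the first oxygen-requiring step of the sterol branch. Its levels were 12.54, 12.44, 11.63 and 12.02 in the NEFA RNA, against 11.88, 12.75, 12.28 and 12.77 in the control RNA. The NEFA level of array B stood above the control level of array C, so that the groups overlapped under either reading of array A. The mean ratio was -0.26 (standard error 0.24, n = 4) as headed, -0.59 (0.10) exchanged and -0.57 (0.14, n = 3) without array A.

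CYP51, the lanosterol 14-alpha-demethylase, had 11.23, 10.75, 10.44 and 10.71 in the NEFA RNA, against 11.07, 11.04, 10.80 and 11.35 in the control RNA. Both of its levels on array A lay close together, and CYP51 was the enzyme whose mean moved least with the exchange. The mean ratio was -0.29 (standard error 0.14, n = 4) as headed and -0.36 (0.10) exchanged, 1.22-fold and 1.29-fold lower with NEFAs. It was -0.43 (0.13, n = 3) without array A.

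TM7SF2, the C14 sterol reductase that acts on the product of CYP51, differed from the rest. Its levels were 9.16, 9.71, 8.77 and 9.14 in the NEFA RNA, against 9.46, 9.76, 10.12 and 9.92 in the control RNA. Array C had by far the widest gap (ratio -1.36), followed by D (-0.78), while A (-0.30) and B (-0.06) had the narrowest. The 2 arrays with NEFA in Cy5 thus carried most of the difference, and the dye coefficient (red over green, array A exchanged) was -0.60 for TM7SF2 and between -0.15 and 0.11 for the other 5 enzymes. The mean ratio was -0.62 (standard error 0.21, n = 4) as headed, 1.54-fold lower with NEFAs, with 3 of all genes at or below it, and -0.47 (0.27) exchanged, with 55 at or below it. Without array C it was -0.39 as headed and -0.18 exchanged. The dim second probe had 0.06 (0.08) as headed and 0.08 (0.07) exchanged, with levels between 7.74 and 8.03 in all RNAs, and it was not well above background on any array.

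MSMO1, the C4 methylsterol oxidase, follows TM7SF2 on the route and had the steadiest ratios of the 6 once array A was exchanged. Its levels were 13.29, 13.34, 12.66 and 13.45 in the NEFA RNA, against 12.35, 14.05, 13.63 and 14.31 in the control RNA. The ratios on B, C and D were -0.71, -0.97 and -0.87, and that on array A was 0.94 as headed and -0.94 exchanged. The mean was -0.40 (standard error 0.32, n = 4) as headed with an SD of 0.90 over arrays, and -0.87 (0.08) exchanged with an SD of 0.12, which is 1.83-fold lower with NEFAs. On array D the raw spot intensity of MSMO1 was 11221 in the red NEFA channel and 20483 in the green control channel. Raw channels also differ by dye. With background subtracted, MSMO1 had 10990 in red and 20072 in green on that array. The second TM7SF2 probe, with a ratio of 0.02 there, had 262 and 494. That probe was far dimmer than MSMO1 and not above background, so it gives no measure of the dye difference at the brightness of MSMO1. The raw values of this array alone cannot tell a difference between NEFA and control from a difference between dyes.

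**Figure D2:**
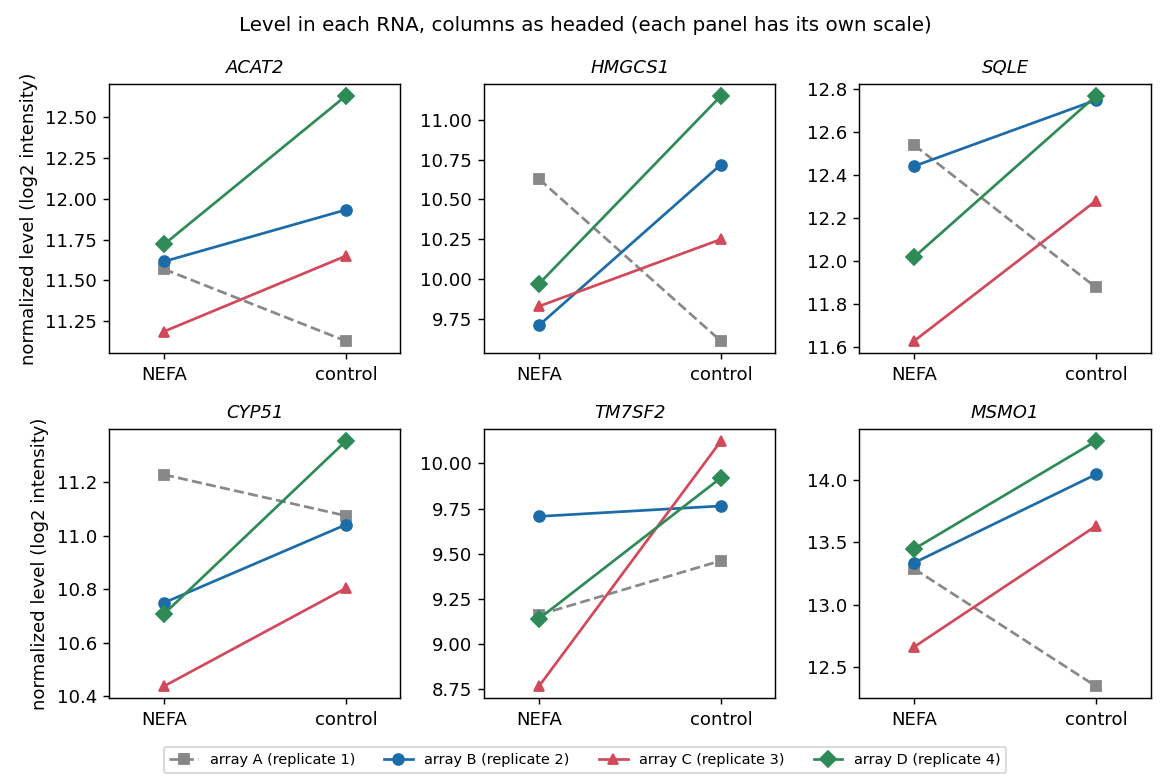
Normalized log2 level (vertical axis, a scale of its own in each panel) of each enzyme in the NEFA RNA (left) and control RNA (right), joined by array, with array A dashed and as headed. The solid lines of arrays B, C and D all go up towards the control, and an exchange of array A would mirror the dashed line.

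Taken as a set, the 6 enzymes had a median ratio of -0.35 as headed (range -0.62 to -0.26), against a median of -0.02 over all genes. With array A exchanged the median was -0.56 (range -0.90 to -0.36), against -0.01, and without array A it was -0.65 (range -0.88 to -0.43, n = 3), against -0.02. The criterion of the study's methods is an unadjusted p under 0.05 from limma together with a 1.2-fold change. As headed it was met, in the lower direction, by TM7SF2 alone, and by 0.522% of all genes (0.803% in either direction). Exchanged it was met by the other 5 and not by TM7SF2, beside 3.08% of all genes (4.17% in either direction). With a dye term added to the exchange it was met by all 6, beside 3.71% (6.72% in either direction), and without array A by all 6, beside 2.24%. Leaving out 1 array at a time as headed moved the means of other enzymes than HMGCS1 and TM7SF2 too, those of ACAT2 between -0.57 and -0.11, of SQLE between -0.57 and -0.10, of CYP51 between -0.43 and -0.17 and of MSMO1 between -0.88 and -0.19, each lowest without array A. Replicate 3 or 4 left out of the arrays as headed left 0 of the 6 past the criterion, beside 28 and 26 of all genes. With array A exchanged, 5 of the 6 were past it without replicate 2, without replicate 3 and without replicate 4. Nothing is read from any of these counts past the criterion, because the same arrays chose the genes.

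The NEFA ratios of whole arrays depended on the dyes and on the reading of array A. Across all 9962 genes the ratio of array B, with NEFA in Cy3, correlated at -0.38 with that of array C and at -0.26 with that of array D, both with NEFA in Cy5, while C and D, alike in dye, had 0.45. Array A, in the same dye as B, correlated as headed at -0.75 with B and at 0.35 and 0.27 with C and D, and its exchange turns the sign of each. Over the genes above background B had -0.29 with C and -0.14 with D, and A as headed had -0.87 with B, 0.26 with C and 0.11 with D (genes are not independent replicates). With array A left out, the 6 enzymes were below 0 on B as well as on C and D, TM7SF2 by only 0.06 on B. With array A in, this did not hold for all 6 under either reading, since 5 were above 0 on A as headed and TM7SF2 was above 0 (0.30) on A exchanged. A dye term leaves the mean of a balanced design as it is. Under the exchange it brought the standard error of TM7SF2, the enzyme with the largest dye coefficient of the 6, to 0.11 and put those of the other 5 between 0.07 and 0.12.

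**Figure D3:**
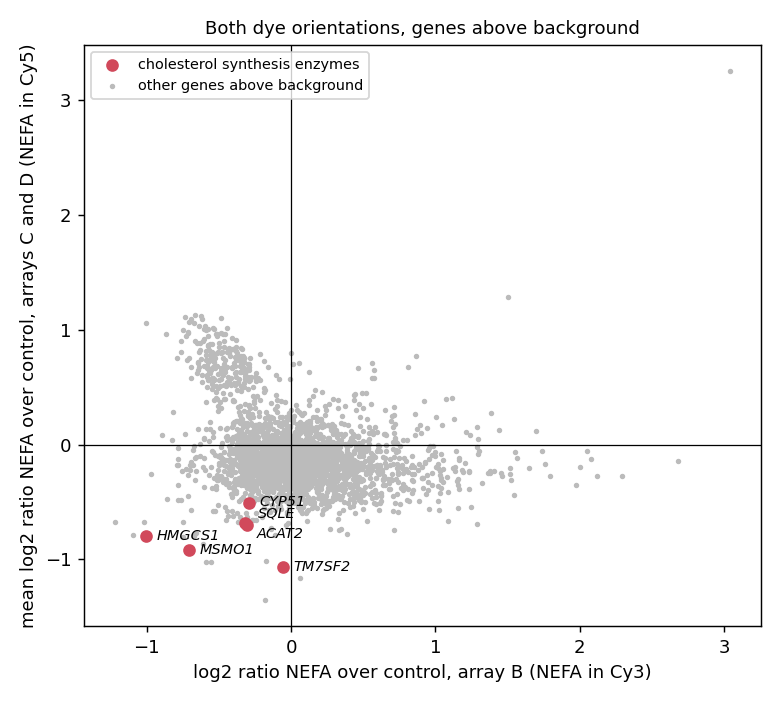
Log2 ratio of NEFA over control on array B (horizontal axis, NEFA in Cy3) against the mean of arrays C and D (vertical axis, NEFA in Cy5) for the 2682 genes above background, with the 6 enzymes in red. All 6 lie in the lower left part, HMGCS1 and MSMO1 farthest to the left and TM7SF2 lowest.

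The other enzymes of the route were covered thinly. Of 19 listed, 5 were measured (FDPS, NSDHL, PMVK, MVK and GGPS1), and 2 of these, FDPS and NSDHL, were above background. MVD, IDI1, FDFT1, LSS, EBP, SC5D and DHCR7 are not named in the annotation and were not analysed here, nor were LBR and ACAT1, the homologues of TM7SF2 and ACAT2. None of the 5 met the criterion as headed or with array A exchanged, and their median ratios were -0.09 and -0.08.

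FDPS, which makes farnesyl diphosphate between the steps of HMGCS1 and SQLE, was nearest to the 6 enzymes in its values. It had levels of 11.74, 11.85, 11.42 and 11.61 in the NEFA RNA of arrays A to D, against 11.69, 11.99, 11.85 and 12.66 in the control RNA. The levels overlapped, and array D held most of the difference. The mean ratio was -0.39 (unadjusted p = 0.0742 from limma, adjusted p = 1.00) as headed and -0.41 (unadjusted p = 0.0514) exchanged. FDPS met the criterion in the lower direction with a dye term (unadjusted p = 0.0299 as headed, beside 0.683% of all genes, and 0.00417 exchanged, beside 3.71%). It met it too without array A (-0.54, unadjusted p = 0.0323), beside 2.24% of all genes.

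NSDHL, the C4 decarboxylating sterol dehydrogenase that acts after MSMO1, had -0.43, 0.10, -0.65 and -0.18 on arrays A to D. Its mean was -0.29 (unadjusted p = 0.0735) as headed and -0.08 (unadjusted p = 0.679) exchanged, and without array B it met the criterion as headed (-0.40, unadjusted p = 0.0118), as did 14.9% of all genes. The kinases of the mevalonate route, MVK and PMVK, and GGPS1, which makes geranylgeranyl diphosphate outside the sterol branch, were not above background, with mean ratios between -0.09 and -0.01 as headed.

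Among 25 genes of sterol sensing and uptake, 11 were measured and 6 were above background. As headed 0 met the criterion, and the smallest adjusted p from limma was 1.00. INSIG1, a retention protein of the SREBP pathway and itself a target of it, was not above background, with a mean level of 7.96 and ratios of -0.14, -0.19, 0.14 and 0.26 on arrays A to D. SREBF1, SREBF2 and SCAP are not named in the annotation and were not analysed here. NPC2, which hands cholesterol out of the lysosome, had levels of 15.07, 12.91, 14.58 and 14.30 in the NEFA RNA, against 14.89, 13.34, 15.09 and 14.46 in the control RNA, so that the spread between replicates was far wider than the gap within them. Its ratio was -0.23 (unadjusted p = 0.120) as headed and -0.32 (unadjusted p = 0.0134, adjusted p = 0.723) exchanged. NPC2 met the criterion under the exchange, as 1 of the 11 measured, beside 4.17% of all genes in either direction. It met it too without array A (-0.37, unadjusted p = 0.0263), beside 2.24% of all genes in the lower direction. Under the exchange the call was lost without array B or without array C.

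The rest of that list had no shared direction. LRP8, a lipoprotein receptor, had -0.66, 1.00, -0.14 and 0.01 on arrays A to D, with a mean of 0.05 as headed and 0.38 exchanged. Under the exchange LRP8 met the criterion with a dye term (unadjusted p = 0.00164 from limma), beside 6.72% of all genes in either direction. It met it too under the exchange without array C (0.56, unadjusted p = 0.0350), beside 663 of all genes. PGRMC1, a haem-binding partner of CYP51 and other P450 enzymes, had -0.13 and -0.11 in the same order, and PGRMC2 had 0.07 and -0.15. RNF139, a ubiquitin ligase of sterol-regulated degradation, had 0.10 and -0.11, and STARD4, a sterol carrier that was not above background, had 0.18 and -0.01. Without array B as headed STARD4 met the criterion (0.27, unadjusted p = 0.0205 from limma), as did 14.9% of all genes.

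Among 25 genes of cholesterol export, storage and transport, 17 were measured and 7 were above background. As headed 0 met the criterion, and with array A exchanged 1 of the 17 did, LIPA in the higher direction, beside the 4.17% of all genes that met it under that reading. LIPA, the lysosomal acid lipase that frees cholesterol from its esters, had levels of 13.32, 14.52, 13.62 and 14.38 in the NEFA RNA, against 13.84, 13.87, 13.40 and 14.00 in the control RNA. Its ratio was above 0 on B, C and D and below 0 on array A as headed. The mean was 0.18 (unadjusted p = 0.365) as headed, 0.44 (unadjusted p = 0.00321, adjusted p = 0.635) exchanged and 0.43 (unadjusted p = 0.0181) without array A. Under the exchange LIPA met the criterion whichever other array was left out.

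LIPE, a neutral lipase that also cleaves cholesteryl esters, had 0.36 as headed and 0.18 exchanged, and OSBP, an oxysterol-binding carrier, had 0.33 and 0.15. NR1H3, the nuclear receptor LXR alpha, had -0.21 and -0.04, and TSPO of the outer mitochondrial membrane -0.07 and 0.23. ABCA1, the exporter that loads cholesterol onto apolipoprotein A1, had 0.19 and 0.28 and was not above background. STARD3, a late endosomal sterol carrier, had 0.15 and 0.11, and SOAT2, a sterol esterifying enzyme, -0.10 and -0.17, and neither was above background. With all 4 arrays none of these 7 met the criterion under either reading. Under the exchange without array C, TSPO (0.40, not above background under the exchange) and ABCA1 (0.45) met it besides LIPA. All of these were in the higher direction, beside 663 of all genes that met the criterion. Without array B as headed, 6 genes of the list met it, namely LIPE (0.63), OSBP (0.57) and CAV1 (0.49) in the higher direction and APOE (-0.47), NR1H3 (-0.33) and APOA1 (-0.29) in the lower, beside 14.9% of all genes. Of these, APOA1 was not above background. The list's median was -0.05 as headed and 0.10 exchanged.

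**Figure D4:**
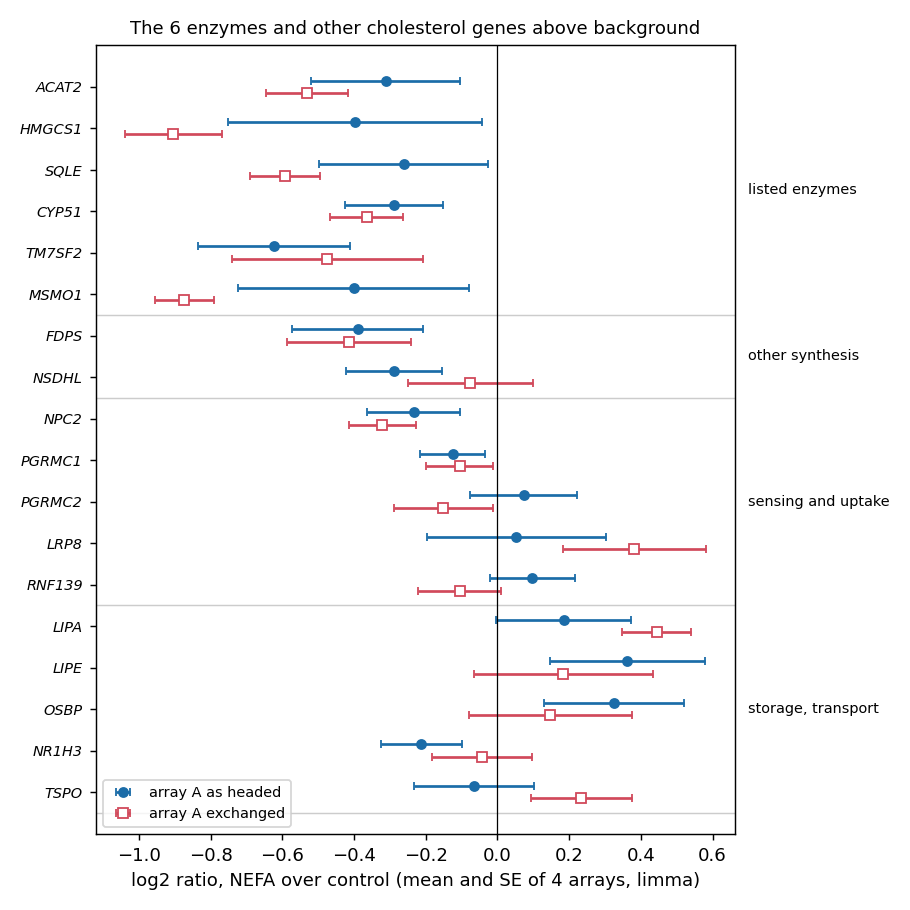
Log2 ratio of NEFA over control (horizontal axis, mean and standard error of 4 arrays from limma) of the 6 enzymes and of the named genes of the other lists that were above background, with array A as headed (filled circles) and exchanged (open squares). The 6 enzymes and FDPS lie between -0.90 and -0.26 under both readings, and LIPA moves to 0.44 when array A is exchanged.

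The genes whose 4 ratios lay nearest to the mean profile of the 6 enzymes (0.49 on A as headed, -0.45 on B, -0.70 on C and -0.85 on D) were sought among the genes above background, 2676 as headed, by Euclidean distance. They were GGH, the lysosomal gamma-glutamyl hydrolase (distance 0.23), SORD, sorbitol dehydrogenase (0.27), XAF1 (0.37), TTC39C (0.37) and SLC25A33, a mitochondrial pyrimidine nucleotide carrier (0.40). GGH had 0.55, -0.37, -0.70 and -0.65 on arrays A to D, and SORD had 0.39, -0.26, -0.62 and -0.70. The same 5 genes were nearest with array A exchanged, since the exchange turns the sign of array A for all genes alike. The 6 enzymes lay between 0.25 and 1.10 from their own mean profile, so that these 5 genes lay within the spread of the set itself.

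Of the cell type markers 0 met the criterion as headed. With array A exchanged CNN1, a smooth muscle calponin that was not above background, did (0.34, unadjusted p = 0.0417 from limma). It was 1 of the 5 fibroblast or smooth muscle markers measured, beside 4.17% of all genes under that reading. The summed level of that list ran between 15.78 and 16.16 in the NEFA RNA and between 16.00 and 16.18 in the control RNA. The granulosa list ran between 12.90 and 14.21 in the NEFA RNA and between 12.28 and 13.72 in the control RNA. The part of cell type composition in the ratios of the enzymes was not tested.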

How the data were processed

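RNA of GC monolayers with or without NEFAs was measured on 4 two-colour EmbryoGENE arrays. The authors amplified and labelled the RNA and extracted the spots with Array-Pro, and the intensity values they deposited are mean spot and local background brightness with no normalization. A table of log ratios was not used, because no match of its rows to the spots held. The probes without a gene name (30648 of 43794) were fitted and not described.

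Spots marked as ignored (60 to 121 probes per array) were set to missing. Normexp with an offset of 50 replaced the background subtraction of the methods, followed by loess within arrays and quantile normalization between arrays. limma 3.58.1 in R 4.3.3 was fitted over all probes with 1 coefficient, two-sided, and Benjamini-Hochberg adjustment ran over all probes. The annotation names 1 gene for 13146 probes (10022 genes, 218 symbols updated), matched to spots by number. Ribosomal protein genes had a median level of 14.27 on this match, against 8.04 for all probes.

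The replicates pair by array, and the ratio carries the pairing. The scripts were tested on simulated data. The members and lists were chosen with earlier results of these data known. Named genes are the 6 enzymes, genes of each list past the criterion, up to 4 of each list with the smallest p as headed and up to 4 exchanged, INSIG1, and the 5 nearest profiles. The genes named under a setting that leaves out an array or adds a dye term were chosen after their values were seen, as were ANGPTL4 and PLIN2. No genome of the array's build was at hand, so no coordinates or sequences are given, and the promoter and protein comparison that had been planned was not made. The number of arrays limits the precision.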

Additional observations from a re-analysis of the deposited data

Results flagged for a closer look

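MSMO1 had a log2 ratio of NEFA over control of 0.94 on array A as headed, far from its ratios of -0.71, -0.97 and -0.87 on arrays B, C and D. The gap to the nearest of the other arrays was 0.863 of the whole range. Of 52 profiles looked at (26 genes under both readings of array A) this was the 1 past Dixon's 95% limit, and chance puts about 5% of groups past it. With the columns of array A exchanged the ratio was -0.94 and stood inside the others. The cause was not tested.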

How the results depend on the processing

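The median ratio of the 6 enzymes (-0.35) stayed below 0 under all alternatives run, between -0.15 (without replicate 4) and -0.65 (without replicate 1), and each of the 6 means did too. Every alternative followed the channel fields, and the dyes named in the titles would turn these signs. The call of TM7SF2 as headed was lost with array A exchanged, without replicate 3, without replicate 4 and with the mean of all its probes (-0.28). The count of all genes past the criterion, 80 as headed, was 415 with array A exchanged, 669 with a dye term besides, 19 without background correction and 7 with probes above background only, where fewer were tested. Leaving out 1 replicate gave 26 to 1483 as headed, and 365, 663 and 519 exchanged without replicates 2, 3 and 4. Without the replicate block, so with NEFA and control not paired by array, it was 44, and the means and the other calls of the lists were unchanged by it. Among the other synthesis enzymes the count of 0 became 1 with a dye term, exchanged or not (FDPS), and ran from 0 to 1 without 1 replicate. The sensing and uptake list went to 1 exchanged (NPC2), to 2 with a dye term besides (LRP8 added), and from 0 to 1 without 1 replicate. The export, storage and transport list went to 1 exchanged, with or without a dye term (LIPA), and from 0 to 6 without 1 replicate, the 6 without replicate 2. Under the exchange without 1 replicate these lists ran from 0 to 1, from 0 to 1 and from 1 to 3. Apart from the cases named, the cause was not tested. Dim probes such as the second of TM7SF2 limit what can be read.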
